A study of Mus musculus with 6 samples.

Results

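Glycolysis and lactate handling in the mouse testis were described from 34 genes chosen by name: the enzymes that carry glucose to lactate, the PFKFB enzymes that tune phosphofructokinase, the glucose transporters Slc2a1 and Slc2a3, and the monocarboxylate (lactate) transporters Slc16a1, Slc16a3 and Slc16a7 with their chaperone Bsg (basigin). The set holds 4 sperm isozymes, Pgk2, Ldhc, Gapdhs and Aldoart1, and 30 somatic isozymes and transporters. On the array these genes were read by 53 of 55668 probes, 23 genes by 1 probe and 11 by several. All 53 probes were among the 38884 probes that were tested, and 52 of them were well above background on all 6 arrays. Pgk2 and Ldhc, the markers of the set, were well above background in every testis.

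The study set testes of Gipr knockout (Gipr-/-) mice against testes of wild-type (Gipr+/+) mice, with 3 animals per genotype. Both genotypes were C57BL/6 and 8 weeks old, and RNA came from the whole organ. Gipr encodes the receptor for the incretin hormone GIP, which signals through cyclic AMP. The labels do not state which part of Gipr was targeted, whether the animals were littermates, or how the line was kept, and a whole-testis sample mixes germ cells with Sertoli, Leydig and other cells. In such a sample, fewer cells of a type and less RNA per cell cannot be told apart.

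Glycolysis splits glucose into pyruvate with a net gain of ATP, and lactate dehydrogenase turns pyruvate into lactate. In the testis, Sertoli cells release lactate that spermatocytes and round spermatids take up as fuel, whereas the sperm tail makes much of its ATP by glycolysis along the fibrous sheath. Germ cells silence the X chromosome in meiosis, and Pgk2 stands in for the X-linked Pgk1. Germ cells also express Ldhc, Gapdhs and Aldoart1, isozymes of Ldha, Gapdh and Aldoa, which are not X-linked.

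The probes that separate the lactate dehydrogenases are shown because Ldhc and Ldha are neighbours on chromosome 7 with similar coding sequence. Probe sequences are those of the array design, 5′ to 3′, with positions on mm9 as the files give them. The Ldhc probe lies at chr7:54131104-54131163 (plus strand) and the Ldha probe at chr7:54107294-54107353 (plus strand). Over the 49 bases in which both can be aligned without gaps, 39 were identical (79.6%), and capitals mark the 10 bases that differ.
Ldhc probe: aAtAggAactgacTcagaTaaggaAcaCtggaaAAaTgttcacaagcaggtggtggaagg
Ldha probe: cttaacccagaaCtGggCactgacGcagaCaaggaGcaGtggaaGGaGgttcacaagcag
The next pair shows what was read for 2 further sperm isozymes. The Pgk2 probe lies at chr17:40344365-40344424 (minus strand) and the second Gapdhs probe at chr7:31514906-31514965 (minus strand).
Pgk2 probe: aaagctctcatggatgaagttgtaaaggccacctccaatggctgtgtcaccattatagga
Gapdhs probe: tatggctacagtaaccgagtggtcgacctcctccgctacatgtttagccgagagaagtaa

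Promoter windows are shown for 3 sperm isozymes and for Ldha because cyclic AMP response elements, the sites of CREB and of its haploid germ cell relative CREM, are built on the core TGACG. Each window holds 300 bases, from 250 before to 50 after the gene's start, taken from RefSeq on GRCm38.p6. Capitals mark TGACG on the printed strand or its reverse complement CGTCA. The windows are chr7:46861013-46861312 (plus strand) for Ldhc, chr7:46845554-46845853 (plus strand) for Ldha, chr7:30743632-30743931 (minus strand) for Gapdhs and chr17:40208560-40208859 (minus strand) for Pgk2.
Ldhc promoter: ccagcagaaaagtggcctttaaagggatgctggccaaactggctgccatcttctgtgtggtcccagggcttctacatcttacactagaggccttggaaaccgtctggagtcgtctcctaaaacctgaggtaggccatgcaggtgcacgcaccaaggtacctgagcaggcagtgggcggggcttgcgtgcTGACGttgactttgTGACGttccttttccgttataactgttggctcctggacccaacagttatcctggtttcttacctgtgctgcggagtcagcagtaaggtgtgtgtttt
Ldha promoter: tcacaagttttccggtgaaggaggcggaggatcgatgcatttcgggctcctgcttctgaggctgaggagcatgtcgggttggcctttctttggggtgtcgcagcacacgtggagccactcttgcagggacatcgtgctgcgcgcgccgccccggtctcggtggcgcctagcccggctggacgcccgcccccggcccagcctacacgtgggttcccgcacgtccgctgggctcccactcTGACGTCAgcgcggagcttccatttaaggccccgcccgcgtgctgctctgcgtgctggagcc
Gapdhs promoter: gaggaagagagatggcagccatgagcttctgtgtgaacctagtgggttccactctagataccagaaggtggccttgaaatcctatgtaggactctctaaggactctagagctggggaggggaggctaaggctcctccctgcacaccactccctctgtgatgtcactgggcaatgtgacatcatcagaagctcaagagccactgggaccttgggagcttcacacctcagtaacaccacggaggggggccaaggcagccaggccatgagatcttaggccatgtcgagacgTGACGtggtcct
Pgk2 promoter: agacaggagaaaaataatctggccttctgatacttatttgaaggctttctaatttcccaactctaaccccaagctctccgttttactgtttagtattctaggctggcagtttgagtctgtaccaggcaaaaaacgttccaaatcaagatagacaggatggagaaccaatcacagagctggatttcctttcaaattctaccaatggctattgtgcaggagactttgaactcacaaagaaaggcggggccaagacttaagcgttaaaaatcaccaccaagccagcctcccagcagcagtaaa
The Ldhc window held 2 matches and the Gapdhs window 1. The Ldha window held 2 that overlap as the full palindrome TGACGTCA, and the Pgk2 window held 0. Ldhc, Ldha and Gapdhs each have a second window, not shown, with 0, 1 and 0 matches. Across the 30 of 34 genes that had a window, 11 of 50 windows held the core (22%), against 6837 of 32851 windows of all genes (20.8%). The full palindrome TGACGTCA was in 1 of 50 of these windows (2%), against 1.79% of all windows. A match is a description of the letters, not of binding. Aldoart1, Slc2a3, Slc16a7 and Bsg were not matched to a window.

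Gipr itself, the check of the labels, read -2.35, -2.31 and -2.12 in knockout testes and 0.08, 0.14 and 0.44 in wild-type testes, in log2 units relative to the 75th percentile of each array. Every level below is on this scale, on which 0 is the array's 75th percentile, and every difference is knockout minus wild type in log2 units. Gipr was 5.58-fold lower in knockout testes (limma, adjusted p = 0.00311). The share of spots well above background ran from 70.6% to 76.0% over the 6 arrays. All 6 shared 1 slide, with the knockout arrays in one row and the wild-type arrays in the other, so a row effect and a genotype effect cannot be told apart. The 12 markers of haploid germ cells that were listed were all well above background on all 6 arrays. Knockout array 3 stood apart in the Leydig markers, whose median deviation from each gene's mean was -0.79 there and between -0.01 and 0.41 on the other arrays. In 4 adipose tissue markers the median deviation was 0.79 on knockout array 1 and 0.42 on wild-type array 2, and between -0.45 and -0.19 on the others.

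None of the 34 genes passed the test. By limma with Benjamini-Hochberg adjustment over all 38884 tested probes, 0 of the 53 probes had an adjusted p under 0.05, against a background of 0.0463% of all probes (18 probes). The adjusted p-values of the 34 genes, each by its brightest probe, ran from 0.547 to 0.9995. Their differences ran from -0.56 for Aldoc to 0.21 for Slc16a3, 20 of 34 lay within 0.1 of 0, and 29 of 34 had a 95% interval inside 0.5 in either direction. At an unadjusted p under 0.05 there were 5 of 53 probes (9.43%), against a background of 7.66%. Among probes well above background on all 6 arrays there were 4 of 52 (7.69%), against 7.60%. The 5 were Aldoa, Aldoc, Pfkfb1 and Pfkfb3, all with lower values in knockout testes (4 of 53, against 3.25% of all probes), and a dim second probe of Slc16a7 with higher values, which was well above background on only 1 wild-type array. That count turned on single arrays, and the share of all probes moved as well. It was 16 of 53 (30.2%) without knockout array 2, against 13.9% of all probes. Without knockout array 1, knockout array 3 or wild-type array 1 it was 1 (1.89%), against 5.16%, 5.80% and 5.91% of all probes. It was 3 (5.66%) and 2 (3.77%) without wild-type arrays 2 and 3, against 5.15% and 10.03% of all probes. The genotypes did not overlap for 10 of 53 probes, against a background of 13.4% of all probes. The knockout values were the lower ones for 7 of the 53, against 5.49% of all probes. They were the higher ones for 3 of the 53, against 7.87% of all probes.

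Values were lower in knockout testes for 32 of the 53 probes, against 47.2% of all probes tested, and for 21 of the 34 genes, against 49.2% of all 26935 genes tested. All 4 sperm isozymes were on that side, with a median difference of -0.15. Of these, Ldhc stood at -0.002, and its sign turned under 6 of 16 alternatives and on its second probe (0.02). Of the 30 somatic isozymes and transporters 17 were, with a median of -0.05, and the median of all genes was 0.002. The somatic median was 0.02 without knockout array 3 and -0.01 without knockout array 1. The sperm isozyme median was -0.25 without knockout array 2 and -0.06 without knockout array 3.

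**Figure D1:**
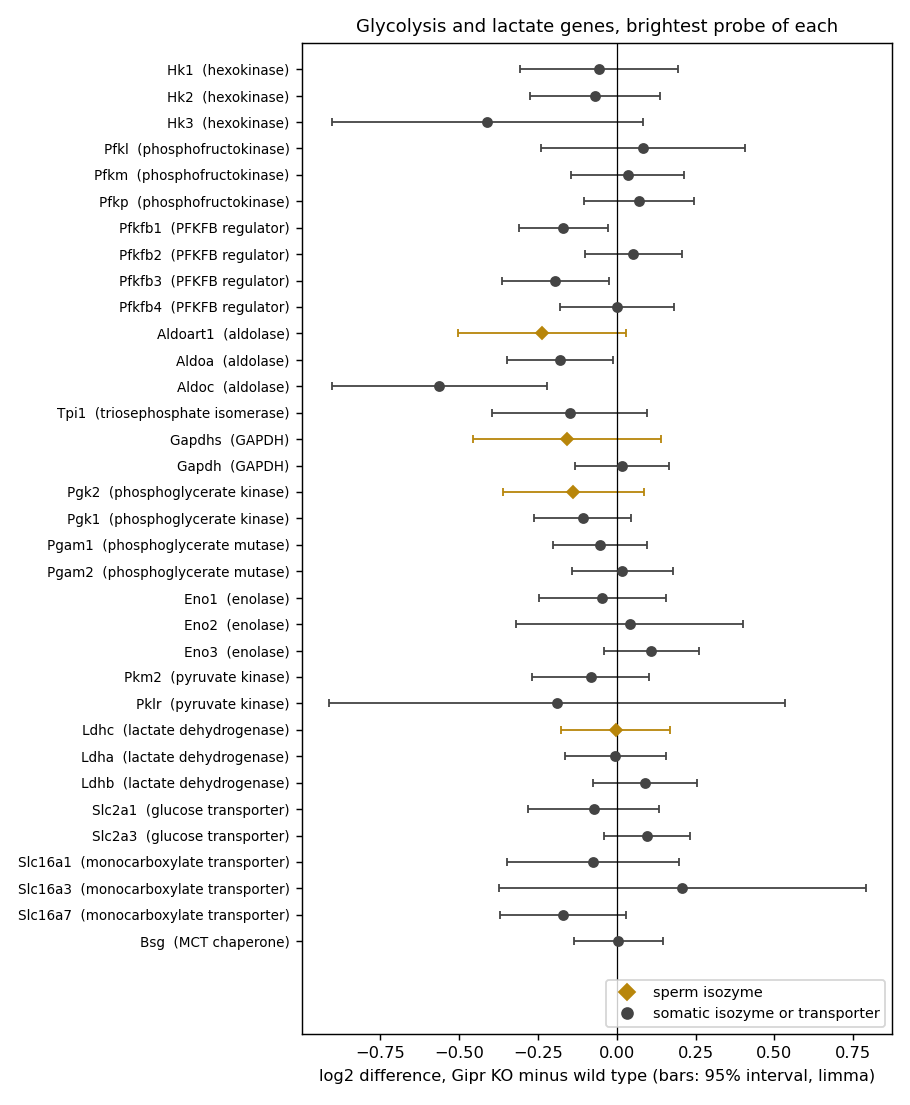
Difference between Gipr knockout and wild-type testes in log2 units (x axis) for the brightest probe of each of the 34 genes, ordered along the pathway (y axis). Points are limma estimates with 95% intervals, diamonds are the 4 sperm isozymes, and the 4 intervals that leave out 0 (Aldoa, Aldoc, Pfkfb1 and Pfkfb3) all lie below it.

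Phosphoglycerate kinase makes the first ATP of the pathway. Pgk2, the autosomal germ cell form, read 6.16, 6.35 and 6.03 in knockout testes and 6.29, 6.36 and 6.29 in wild-type testes. Knockout arrays 1 and 3 lay below all 3 wild-type arrays and knockout array 2 lay among them. The difference was -0.14 with a standard error of 0.09 and a 95% interval of -0.36 to 0.09 (limma, adjusted p = 0.709). It was -0.22 without knockout array 2 and -0.06 without knockout array 3. Pgk1, the X-linked form, read 1.68, 1.64 and 1.77 in knockout testes and 1.79, 1.77 and 1.85 in wild-type testes. The genotypes did not overlap, by a narrow margin, and the difference of -0.11 did not pass (limma, adjusted p = 0.689). Its only probe is placed by the files on chromosome 3, not on X, so what it reads is uncertain.

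Of the 4 pairs of sperm and somatic isozymes, lactate dehydrogenase had the smallest differences. Ldhc, the germ cell form that is needed for sperm motility, read 8.02, 8.12 and 7.95 in knockout testes and 8.10, 8.03 and 7.98 in wild-type testes. Ldha, the somatic form that favours lactate, read 7.79, 7.87 and 7.75 in knockout testes and 7.87, 7.80 and 7.75 in wild-type testes. For both genes the knockout and wild-type arrays were interleaved. The differences were -0.002 for Ldhc, with a 95% interval of -0.18 to 0.17, and -0.004 for Ldha, with an interval of -0.16 to 0.16 (limma, adjusted p = 0.995 and 0.989). Those intervals hold changes of up to 1.13-fold for Ldhc and 1.12-fold for Ldha in either direction. The printed Ldhc probe gave 0.02, the printed Ldha probe 0.08 and the remaining Ldha probe 0.06. On the printed Ldha probe the knockout arrays, at 4.84, 4.89 and 4.80, lay above the wild-type arrays, at 4.79, 4.73 and 4.76 (limma, adjusted p = 0.724). Ldhb, the somatic form that favours pyruvate, gave 0.09 with a standard error of 0.07 (limma, adjusted p = 0.726).

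Glyceraldehyde-3-phosphate dehydrogenase feeds NADH and the substrate of phosphoglycerate kinase into the lower pathway. Gapdhs, the form bound to the fibrous sheath of the sperm tail, read 7.70, 8.03 and 7.60 in knockout testes and 7.84, 7.96 and 8.01 in wild-type testes. Knockout array 2 was the highest of the 6 and knockout arrays 1 and 3 the lowest. The difference was -0.16 with a standard error of 0.12 and a 95% interval of -0.46 to 0.14 (limma, adjusted p = 0.733). It was -0.28 without knockout array 2 and -0.07 without knockout array 3. The second Gapdhs probe, printed above, gave -0.18 with the same order of knockout arrays. Gapdh read 6.14, 6.05 and 6.03 in knockout testes and 6.03, 6.05 and 6.10 in wild-type testes, a difference of 0.02 with overlapping genotypes (limma, adjusted p = 0.945). Its 8 probes ranged from -0.08 to 0.03, and 3 of them, the brightest included, are placed by the files on chromosomes 7, X and 8, not on chromosome 6 where the gene lies.

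Aldolase, which splits fructose-1,6-bisphosphate, had all 3 of its genes at lower values in knockout testes. Aldoart1, the retrogene expressed in germ cells, read 3.19, 3.53 and 3.15 in knockout testes and 3.55, 3.51 and 3.53 in wild-type testes. Knockout arrays 1 and 3 lay below every wild-type array and knockout array 2 lay between wild-type values. The difference was -0.24 with a standard error of 0.11 and a 95% interval of -0.50 to 0.03 (limma, adjusted p = 0.655), and -0.36 without knockout array 2. Aldoa, the ubiquitous form, read 6.58, 6.69 and 6.50 in knockout testes and 6.76, 6.78 and 6.77 in wild-type testes. The genotypes did not overlap, and the difference of -0.18 (1.13-fold lower, 95% interval -0.35 to -0.01) did not pass (limma, adjusted p = 0.639).

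Aldoc, the aldolase best known from brain, had the largest difference of the 34 genes. Its probe at chr11:78140198-78140257 (mm9) read 1.05, 1.55 and 1.07 in knockout testes and 1.78, 1.79 and 1.78 in wild-type testes. All 3 knockout arrays lay below all 3 wild-type arrays, and the SD was 0.28 in knockout testes and 0.004 in wild-type testes. The difference of -0.56, with a standard error of 0.14 and a 95% interval of -0.90 to -0.22, equals 1.48-fold lower values in knockout testes. The limma unadjusted p was 0.00655 and the adjusted p 0.547, and the adjusted p was 0.156 to 0.907 over the alternatives tried. Without knockout array 3 the difference was -0.48.

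**Figure D2:**
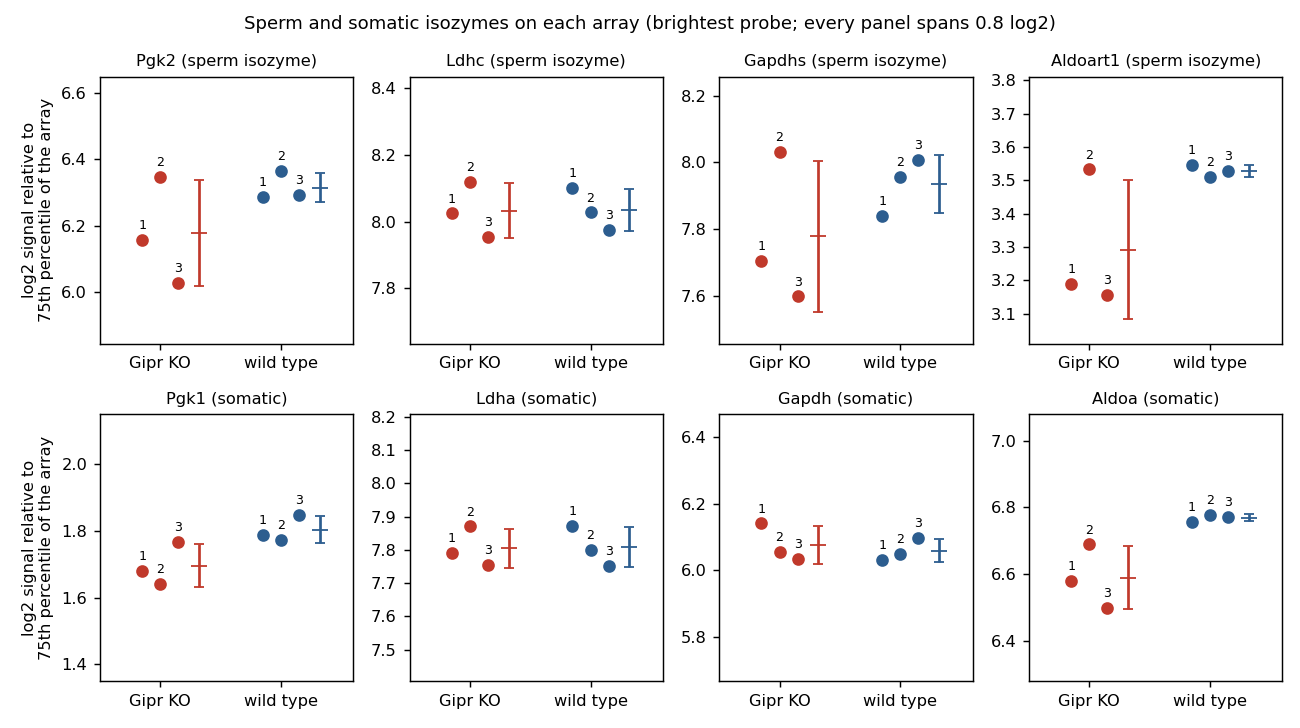
Log2 signal relative to the array's 75th percentile (y axis) of the 4 sperm isozymes (top) and their somatic counterparts (bottom) on each numbered array, Gipr knockout in red left of wild type in blue, with mean and SD (n = 3 each). Every panel spans the same range of log2 units, and knockout array 3 is the lowest of the 6 arrays in all 4 top panels.

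The remaining enzymes of the pathway had smaller or less regular differences. Hexokinases, which trap glucose in the cell, gave -0.06 for Hk1, the form with a germ cell variant, -0.07 for Hk2 and -0.41 for Hk3. Hk3 read -2.89, -2.95 and -3.20 in knockout testes and -2.62, -3.00 and -2.21 in wild-type testes, so that the genotypes overlapped (standard error 0.20, limma adjusted p = 0.660). The Hk3 difference was -0.21 without wild-type array 3, -0.60 without wild-type array 2 and -0.18 with array weights. The 3 phosphofructokinases, the committed step, had differences above 0, with 0.08 for Pfkl, 0.03 for Pfkm and 0.07 for Pfkp. Tpi1, triosephosphate isomerase, read 5.52, 5.71 and 5.34 in knockout testes and 5.64, 5.69 and 5.70 in wild-type testes, a difference of -0.15 (limma, adjusted p = 0.709). Knockout array 2 was the highest of the 6 arrays for Tpi1 and knockout array 3 the lowest. Its difference was -0.24 without knockout array 2 and -0.06 without knockout array 3. Its second probe gave -0.19 with genotypes that did not overlap.

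Pfkfb1 and Pfkfb3 belong to the bifunctional enzymes that set the level of fructose-2,6-bisphosphate, the activator of phosphofructokinase. Pfkfb1 read -0.72, -0.68 and -0.78 in knockout testes and -0.55, -0.55 and -0.58 in wild-type testes. Pfkfb3 read 2.67, 2.85 and 2.76 in knockout testes and 2.92, 2.94 and 3.00 in wild-type testes. In both genes every knockout array lay below every wild-type array. The differences were -0.17 for Pfkfb1 and -0.19 for Pfkfb3, and neither passed (limma, adjusted p = 0.639 for each). Pfkfb2 and the testis form Pfkfb4 gave 0.05 and 0.0002.

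In the lower pathway Eno3, the muscle enolase, read 3.88, 3.80 and 3.83 in knockout testes and 3.67, 3.73 and 3.78 in wild-type testes. The knockout arrays lay above the wild-type arrays, and the difference of 0.11 did not pass (limma, adjusted p = 0.680). Eno1 gave -0.04, by a probe that the files place on chromosome 2 where the gene lies on 4, and Eno2 gave 0.04. The phosphoglycerate mutases gave -0.05 for Pgam1 and 0.02 for Pgam2, the muscle form that is also the sperm form. Pyruvate kinase, which makes the last ATP, gave -0.08 for Pkm2 and -0.19 for Pklr, the liver and red cell form, with a standard error of 0.30 for Pklr.

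Transport genes did not share a direction. Slc2a3, the glucose transporter GLUT3 of neurons and sperm, read 6.70, 6.65 and 6.65 in knockout testes and 6.59, 6.54 and 6.57 in wild-type testes. The genotypes did not overlap, with a difference of 0.10 (limma, adjusted p = 0.689), whereas Slc2a1 (GLUT1) gave -0.07. Slc16a7 (MCT2), the lactate importer of the sperm tail, read 2.03, 2.25 and 2.05 in knockout testes and 2.33, 2.29 and 2.22 in wild-type testes. Only knockout array 2 reached the wild-type range, and the difference was -0.17 (limma, adjusted p = 0.658). Its dim second probe pointed the other way, at -5.50, -5.87 and -5.64 in knockout testes and -6.11, -5.84 and -6.05 in wild-type testes, and it was well above background on all 3 knockout arrays and on 1 wild-type array. No difference is given for it, since most of its wild-type values were at background. Slc16a1 (MCT1) gave -0.08. Slc16a3 (MCT4) read 0.15, -0.67 and 0.02 in knockout testes and -0.51, -0.08 and -0.53 in wild-type testes, a difference of 0.21 with a standard error of 0.24. Bsg, which brings the MCT proteins to the membrane, gave 0.005.

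Probes of one gene gave a check on these values. In 6 of the 11 genes with several probes the differences had both signs, and in all of these but Pfkp and Slc16a7 every probe lay within 0.1 of 0. The dim Pfkp probe gave -0.27. The files place 6 of the 53 probes, in the 4 genes Hk1, Gapdh, Pgk1 and Eno1, on a chromosome other than the gene's. Such probes may read near-identical copies, so the values of Gapdh, Pgk1 and Eno1, whose brightest probe is of this kind, are uncertain. The brightest Gapdh probe on chromosome 6 gave 0.03. The Slc16a3 probes, which share a run of 53 bases, gave 0.21 and 0.19, and are not independent readings.

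Sperm and somatic forms were compared within each testis by the difference of their log2 values, set relative to the wild-type mean. The pairs took differences of -0.17 for Gapdhs over Gapdh, -0.06 for Aldoart1 over Aldoa, -0.03 for Pgk2 over Pgk1 and 0.002 for Ldhc over Ldha, again knockout minus wild type. The Gapdh and Pgk1 probes used here are placed on other chromosomes than their genes, so those pairs are uncertain. With a Gapdh probe on the gene's own chromosome the Gapdhs pair gave -0.18. For Gapdhs over Gapdh the values were -0.31, 0.10 and -0.31 in knockout testes and -0.07, 0.03 and 0.04 in wild-type testes. Knockout array 2 lay above the wild-type arrays and the other two below them. The 2-sided exact permutation p-values were 0.4, 0.5, 0.9 and 1 in the order of the pairs given, and all were 1 after Benjamini-Hochberg adjustment over the 4 pairs. With 3 testes against 3, the smallest p this test can give is 0.1. Without knockout array 2 the Gapdhs pair difference was -0.31 and the Aldoart1 pair difference -0.13 (exact permutation p = 0.1 for each). Without knockout array 1 they were -0.10 and -0.01 (exact permutation p = 0.7 and 0.9).

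The 4 sperm isozymes shared an order of the knockout arrays. In all 4, knockout array 3 was the lowest of the 6 arrays and knockout array 2 the highest of the knockout arrays, by the brightest probe. The second Ldhc probe was lowest on wild-type array 3. Knockout array 2 was the highest knockout array for 46.7% of the 30 somatic genes and 36.8% of all genes tested. Knockout array 3 was the lowest of the 6 for 14 of the 34 genes (41.2%), against 27.0% of all genes tested. The median deviations of the somatic genes (-0.02, 0.02 and -0.03) and of the pathway genes outside the set (-0.01, 0.01 and -0.02) had the same order on the knockout arrays. Knockout testes also spread more widely, with an SD above that of wild-type testes in 4 of 4 sperm isozymes and 26 of 34 genes (76.5%), against 58.0% of all genes. The median SD of the sperm isozymes was 0.185 in knockout testes and 0.0531 in wild-type testes. These genes were read from the same 6 testes and are not replicates of a genotype.

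Of 12 haploid germ cell markers, 11 had knockout array 3 as the lowest of the 6 arrays and 11 had knockout array 2 as the highest knockout array. The median deviation of the 4 sperm isozymes was -0.12, 0.11 and -0.24 on the knockout arrays and 0.05, 0.10 and 0.08 on the wild-type arrays. That of 12 haploid germ cell markers was -0.08, 0.07 and -0.13 on the knockout arrays and 0.07, 0.12 and -0.03 on the wild-type arrays. Of these 12 markers 10 had lower values in knockout testes, with a median difference of -0.10, and 0 were called. Odf1, a protein of the outer dense fibres of the sperm tail, was the 1 marker with an unadjusted limma p under 0.05, with a difference of -0.30 (adjusted p = 0.639). The protamine and transition protein genes Prm1, Prm2, Tnp1 and Tnp2 differed by -0.03, -0.02, 0.007 and 0.003. The summed level of all 12 markers, in multiples of the array's 75th percentile, was 2433 to 2787 in knockout testes and 2606 to 2735 in wild-type testes, with no marker below background. Prm1, Prm2, Tnp1 and Tnp2 made up most of that sum. The part of these markers in the isozyme values was not tested.

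Of the other main cell types, the Leydig cell and macrophage lists had the same median order on the knockout arrays, with knockout array 3 the lowest of the 6. In the spermatocyte and Sertoli cell lists knockout array 3 was the highest of the 6. The 10 spermatocyte markers had a median difference of 0.05, with 8 higher in knockout testes, and their summed level was 94.5 to 100.3 in knockout testes and 98.8 to 103 in wild-type testes. The 10 Sertoli cell markers had a median difference of 0.10, with 7 higher. Their summed level was 324 to 338 in knockout testes and 309 to 312 in wild-type testes. Most of that sum came from Clu and Rhox8, which differed by -0.01 and 0.24. The 7 measured Leydig cell markers had a median difference of -0.44, with 6 lower. Their summed level was 37.5 to 42.1 in knockout testes and 43.0 to 46.2 in wild-type testes. Hsd3b1 and Cyp17a1, which differed by 0.16 and -0.44, made up most of it. The 8 macrophage markers had a median of -0.17, with 6 lower and sums of 6.74 to 8.11 in knockout testes and 7.67 to 9.20 in wild-type testes. None of these markers was called, although 3 Sertoli cell markers were higher and 1 spermatocyte and 1 Leydig cell marker lower at an unadjusted limma p under 0.05. Their part in the values of the glycolytic genes was not tested.

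**Figure D3:**
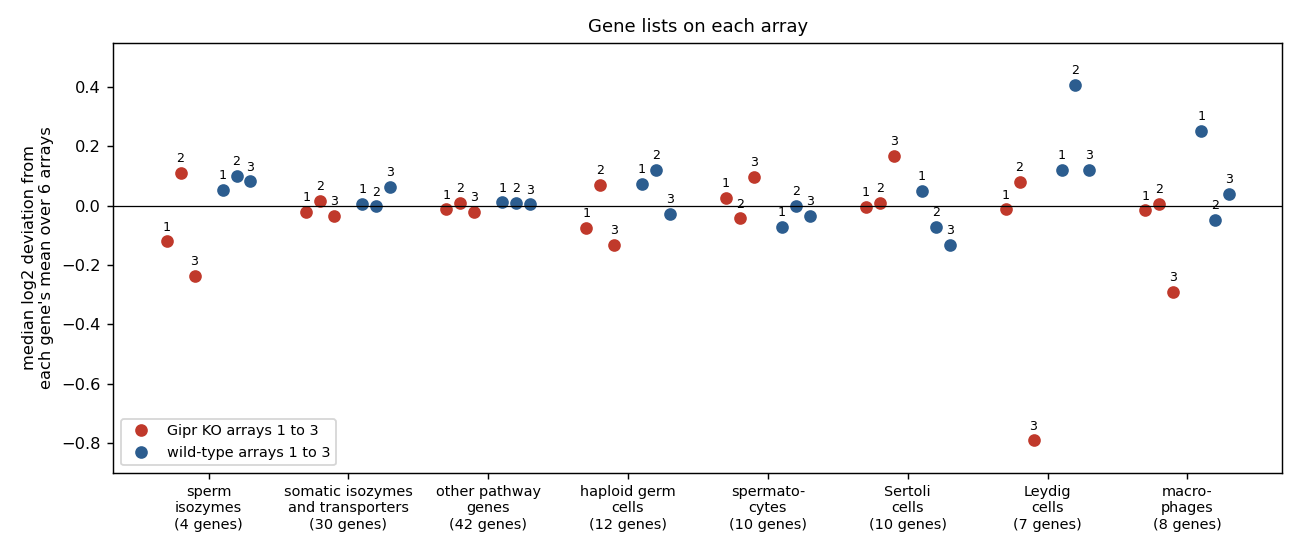
Median deviation in log2 units from each gene's mean over the 6 arrays (y axis) for each gene list (x axis), with one numbered point per array, Gipr knockout in red left of wild type in blue. Knockout array 3 is the lowest point for the sperm isozymes (-0.24), the somatic genes (-0.03), the other pathway genes (-0.02), the haploid germ cell markers (-0.13), the Leydig markers (-0.79) and the macrophage markers (-0.29), and the highest for the spermatocyte and Sertoli cell markers.

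Genes of the same pathways outside the set showed no shared direction. Of 44 such genes, among them the pyruvate dehydrogenase subunits and kinases, the mitochondrial pyruvate carriers and other sugar and lactate transporters, 42 were measured. Values in knockout testes were lower for 21 and higher for 21, the median difference was -0.01, and 0 of 42 were called. Ldhd, a mitochondrial dehydrogenase of D-lactate, was the 1 gene with an unadjusted limma p under 0.05. It read -1.34, -0.94 and -1.32 in knockout testes and -0.90, -0.94 and -0.90 in wild-type testes, a difference of -0.29 (limma, unadjusted p = 0.0452, adjusted p = 0.644). All 3 knockout arrays lay below the wild-type arrays, knockout array 2 by a narrow margin.

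Aldoart2, the second germ cell aldolase retrogene, read 5.51, 5.79 and 5.43 in knockout testes and 5.74, 5.82 and 5.74 in wild-type testes. Its difference was -0.19 (limma, adjusted p = 0.678), with knockout arrays 1 and 3 below the wild-type arrays as in Aldoart1. Emb (embigin), a relative of basigin that partners MCT2, gave 0.37 with a standard error of 0.20 (limma, adjusted p = 0.675). Dld, a subunit of the pyruvate dehydrogenase complex, gave 0.10 with genotypes that did not overlap (limma, adjusted p = 0.688). On chromosome 7, which carries Gipr, the distances from Gipr on mm9 were 11.8 Mb for Gapdhs, 34.4 Mb for Ldha and Ldhc and 114 Mb for Aldoa.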

How the data were processed

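RNA from 6 testes was labelled with Cy3 and hybridised to 1-colour Agilent arrays, per the labels' protocols. The deposited intensity values are processed signals of Agilent Feature Extraction 10.7.3.1, background-corrected on each array, per the file headers and the submitters' processing notes. The authors' deposited value table is a linear signal: each column equalled the processed signal times 1 factor per array, with a median of 200, and it served only as an alternative. Its values are uncentred.

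Control and outlier spots were left out, spots of a probe were averaged, and log2(processed signal) minus each array's 75th percentile was compared between genotypes, without covariates, with limma 3.58.1 in R 4.3.3, after tests on simulated data. A probe was tested if well above background on all 3 arrays of a genotype. A call is a Benjamini-Hochberg adjusted p under 0.05 over all tested probes. Genes are given by their brightest tested probe, and isozyme pairs by an exact permutation test. No spot was saturated.

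The 34 genes, the marker and pathway lists and the comparisons were chosen with earlier results of these data known. Named in full are the sperm isozymes, their somatic counterparts, the 8 further genes and the 4 pathway genes of lowest unadjusted p. The lists for spermatogonia, endothelium, blood, skeletal, smooth and myoid muscle, adipose tissue and epididymis had median differences of 0.007, 0.02, 0.25, 0.01, 0.13, -0.05 and -0.21. Measured genes numbered 8, 5, 2, 3, 4, 4 and 2 in the same order, so the blood and epididymis medians rest on 2 genes each. Alternatives were another background correction and normalization, the deposited table, other probe filters and summaries, a replicate block, other variance models, each array left out, and, chosen after seeing the data, only probes on the gene's own chromosome. The number of arrays limits the precision.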

Additional observations from a re-analysis of the deposited data

How the results depend on the processing

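The count of 0 called probes held under all 17 alternatives. The sperm isozyme median kept its direction (-0.25 to -0.06), but several alternatives could not move it. The probe filters, the brightest probe per gene, the replicate block, the trended robust variance and the own-chromosome probes left it at -0.147. They do not change the estimates of these genes. The count of 5 probes at an unadjusted p under 0.05 became 8 of 53 (15.1%) with normexp background correction, against 8.51% of all probes. It was also 8 (15.1%) with a trended robust variance, against 8.41% of all probes. With array weights it became 10 (18.9%), against 17.9% of all probes. With 1 array left out it was 1 to 16 (1.89% to 30.2%), against 5.15% to 13.9% of all probes, as given above by array. Correlations of same-numbered deviations were 0.06, -0.02 and -0.003, which cannot tell whether the replicate numbers pair the testes. With the replicate block 1 of 53 probes had an unadjusted p under 0.05, against 7.72% of all probes. Of all probes 6 were called with the block, against 18 without it. Over all probes 30 were called with normexp, 35 with the trended robust variance, 29 with array weights, 7 with no filter on dim probes and 5 to 11 with 1 array left out. The median of the somatic genes was -0.015 with quantile normalization and -0.054 to 0.015 with 1 array left out, against -0.049. Of 257 values of the 16 genes named in full, 14 changed sign and 0 passed. Ldhc gave 0.012 with normexp, 0.013 with quantile normalization, 0.011 with the mean of probes and -0.045 to 0.037 with 1 array left out. Ldha gave 0.040 with quantile normalization, 0.044 with the mean of probes and -0.037 to 0.028 with 1 array left out. Gapdh gave -0.018 with the mean of probes and -0.015 to 0.039 with 1 array left out. Slc16a7 gave 0.078 with the mean of probes, which takes in its dim second probe. The Pgk pair gave 0.011 with normexp, 0.010 with quantile normalization and -0.14 to 0.081 with 1 array left out. The Ldh pair gave -0.028 with quantile normalization, -0.033 with the mean of probes and -0.0087 to 0.015 with 1 array left out. Its exact permutation p was 0.1 at -0.033 and also, without knockout array 3, at 0.015. The causes were not tested. Pgk1 and Eno1 have no probe on their own chromosome, and a slide block could not be run because all arrays shared 1 slide.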
